A study of Mesocricetus auratus with 6 samples.

Results

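Chromatin remodelling complexes are ATP-driven machines that slide, evict or exchange nucleosomes and so set which DNA is open to transcription factors, polymerases and repair enzymes. Each complex is built around a catalytic subunit of the SNF2 family, and the families SWI/SNF, ISWI, CHD and INO80 are told apart by that subunit and by the scaffold, reader and actin-related subunits that bind it. SWI/SNF subunits are often mutated in tumours, and NuRD couples a CHD remodeller to histone deacetylases. The genes described here were chosen by symbol alone: those that begin with Smarc, Arid or Ino80, those that are Chd or Brd plus a number, and a list of named subunits (Actl6a, Bptf, Pbrm1, Mta1 to Mta3, Mbd2, Mbd3, Rbbp4, Rbbp7, Ep400, Srcap, Ruvbl1, Ruvbl2 and Atrx). Of 16078 gene IDs in the deposited values, 58 were chosen in this way. Of the 15 names listed one by one, Srcap had no match and is not analysed here.

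RNA was sequenced from BHK21, a fibroblast-like cell line of baby hamster kidney (golden hamster, Mesocricetus auratus), for which the labels give kidney as tissue and 1 day as age. There were 3 libraries from cells transfected with the oncogene STYK1/NOK, a membrane protein with a kinase-like domain (STYK1 1 to 3), and 3 from cells transfected with the plasmid pCMV-Myc, which the series calls the empty vector (vector 1 to 3). All were harvested at 48 after transfection, with no unit given. The labels name no strain or clone and do not say whether replicates were separate cultures. The p-values thus rest on the spread of these libraries alone, which may be technical. The values are of bulk RNA, so fewer cells of a kind and less RNA per cell cannot be told apart.

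The libraries listed 14119 to 14339 genes above 0 FPKM (fragments per unit of transcript length, scaled to the mapped fragments of the library). Their Pearson correlations on log2(FPKM + 1) over 11464 genes were 0.963 to 0.976 for pairs with vector 1 and 0.988 to 0.993 for the others, so vector 1 stood apart. Where leaving it out moved a difference printed here by over 1.5 times, the value without it is given too. Of the listed markers, Vim, Fn1, Sparc, Pdgfra and Pdgfrb were abundant and Dcn was at a mean of 4.69 FPKM, while Col1a1, Col1a2, Col3a1, Lum and Thy1 averaged under 1 FPKM. The summed level of the 11 measured fibroblast markers was 4654 to 5002 FPKM in vector and 4449 to 4813 FPKM in STYK1 libraries. Of 8 measured kidney epithelial markers, only the water channel gene Aqp1 reached a mean of 1 FPKM, and the summed level of the 8 was 1.73 to 3.88 FPKM. Of 9 measured macrophage markers, 4 reached that level (Cd14, Cd68, Csf1r and Fcer1g), with a summed level of 525 to 537 FPKM in vector and 455 to 518 FPKM in STYK1 libraries. The defining markers Ptprc, Itgam and Adgre1 lay at 0 to 0.16 FPKM. Of 5 measured endothelial markers, only Cdh5 reached a mean of 1 FPKM. The part of these cells in any result was not tested.

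Comparing STYK1 with vector libraries asks whether transfection of STYK1/NOK was accompanied by a change in these genes. No member passed the test: limma-trend on log2(FPKM + 1) called 0 of 53 tested members and 0 of 11464 genes (0%) at a Benjamini-Hochberg adjusted p under 0.05, with a smallest adjusted p of 0.469. The differences given here are therefore values, not calls. Within them, the listed catalytic subunits leaned one way. All 14 tested genes of the list of catalytic ATPases had a higher fitted level in STYK1 libraries, against 52.7% of all tested genes. Their differences ran from 0.05 log2 units for Smarca2 to 0.45 for Atrx (0.27 without vector 1). The list was drawn up with earlier results of these data known, so this count is a description only. The other 39 members had 23 above 0 and 16 below. The members with the smallest p were Smarca5, Atrx, Chd2, Chd4, Arid5b and Bptf, 1.16 to 1.36 times the vector mean, while Ruvbl2 lay at 0.807 times. Against the mean of vector 2 and 3 alone, the former lay at 1.16 to 1.23 times (Atrx at 1.22) and Ruvbl2 at 0.892 times.

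At an unadjusted p under 0.05 there were 9 members higher in STYK1 libraries (17% of 53, against 4.95% of all tested genes) and 1 lower (1.89%, against 4.88%). The 9 were Smarca5, Atrx, Chd2, Chd4, Arid5b, Bptf, Pbrm1, Arid1a and Arid4b, and the 1 was Ruvbl2. Without vector 1 there were 10 higher, against 4.91% of all genes, and 1 lower, against 4.57%. All 10 members with p under 0.05 kept it there, and Chd7 joined them. Leaving out a STYK1 library lowered the counts of members and of all genes. Without STYK1 1 there was 1 higher (1.89%, against 1.44% of all tested genes), without STYK1 2 there were 2 (3.77%, against 1.83%) and without STYK1 3 there were 5 (9.43%, against 2.92%). The 3 STYK1 libraries all lay above the 3 vector libraries for 17 members (32.1%, against 13.6% of all tested genes), and all lay below for 2, Ruvbl2 and Brd2 (3.77%, against 9.44%). The median log2 difference was 0.11 over the 53 tested members and 0.01 over all tested genes. Without vector 1 these medians were 0.07 and 0.02. All 53 passed the filter in both groups (lowest group mean 3.76 FPKM). The 5 untested members are Smarca1, Chd5, Arid3b, Arid3c and Arid5a, each at a mean under 1 FPKM in both groups.

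**Figure D1:**
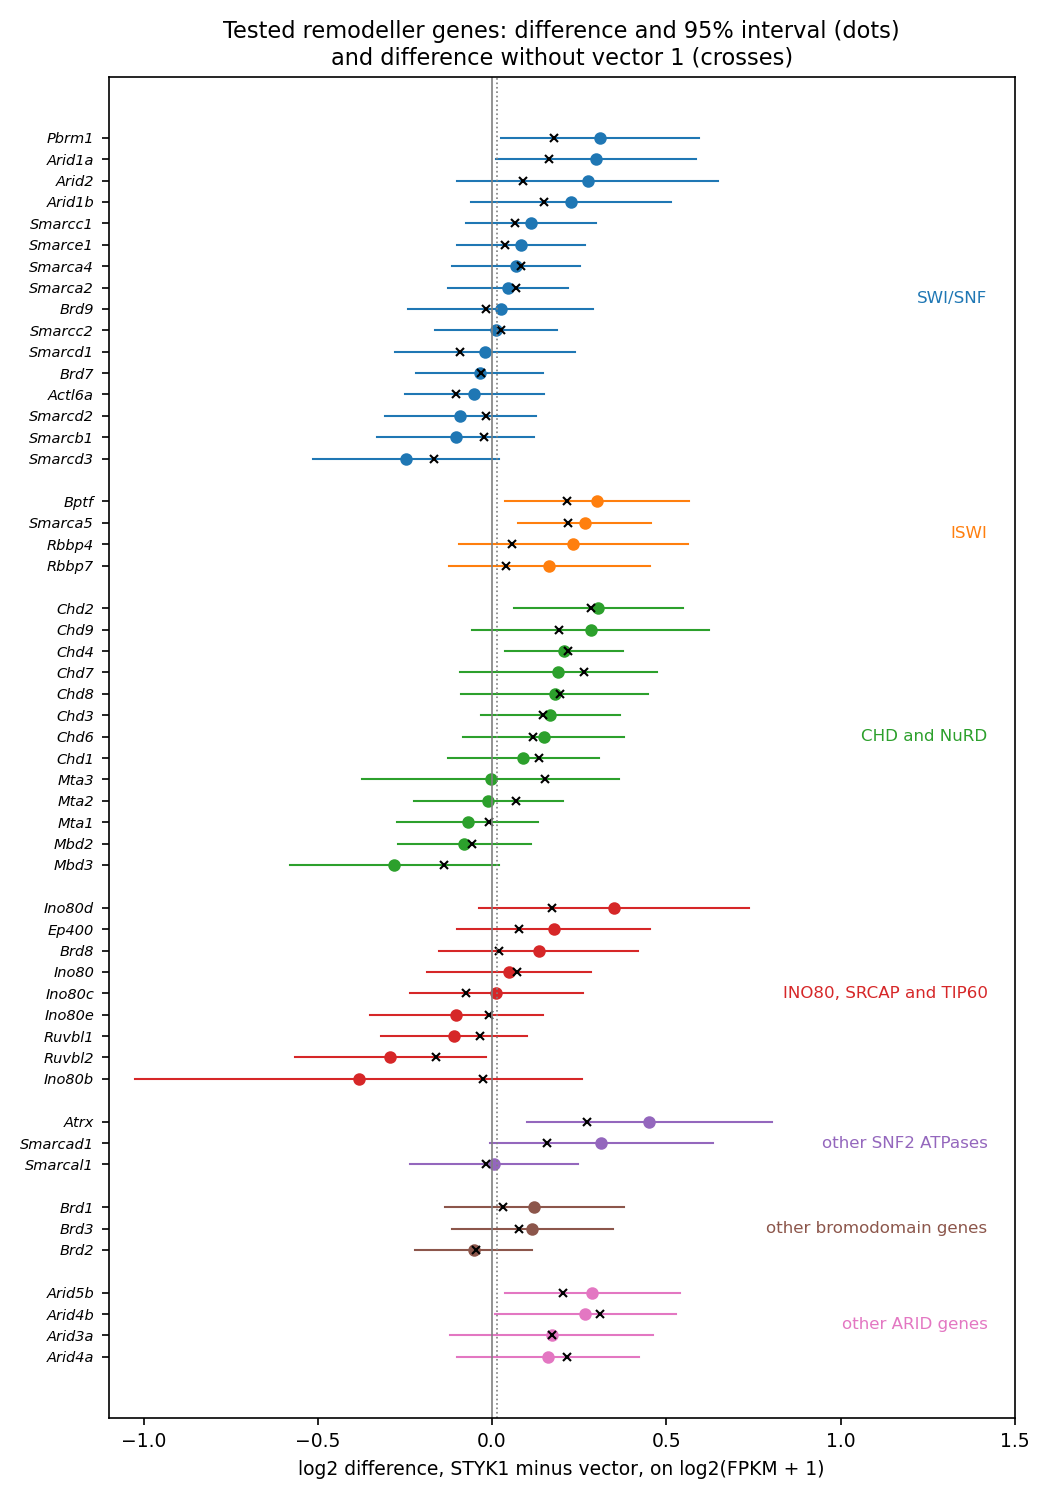
Log2 difference, STYK1 minus vector, on log2(FPKM + 1) for the tested members, grouped by complex, with 1 of the 53 left out. Dots and lines give the limma-trend estimate and its 95% interval from 6 libraries, crosses the estimate without vector 1, and the dotted line the median of all tested genes (0.01). Atrx has the highest dot and Ino80b the lowest, and the crosses of Atrx, Pbrm1, Arid1a, Ino80d and Ino80b lie nearer 0 than their dots.

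The SWI/SNF complexes (also called BAF) are driven by 1 of 2 exclusive ATPases, BRM, encoded by Smarca2, and BRG1, encoded by Smarca4. Both were well expressed. Smarca2 (Gene ID 101828402) measured 64.97, 61.5 and 62.4 FPKM in vector 1, 2 and 3 and 65.5, 66.4 and 63.2 FPKM in STYK1 1, 2 and 3. Smarca4 (Gene ID 101828829) measured 39.3, 37.1 and 39.3 FPKM in vector 1, 2 and 3 and 39.5, 40.3 and 41.6 FPKM in STYK1 1, 2 and 3. Smarca2 was the higher in every library, with 62.0% ± 0.581 of the summed FPKM of the pair in vector and 61.6% ± 1.16 in STYK1 libraries (SD, n = 3 each). FPKM is per length, so levels of different genes can be set side by side on that scale. The Smarca2 groups overlapped, and although the Smarca4 groups did not, its difference was 0.07 ± 0.08 (SE) log2 units (95% interval -0.11 to 0.25). For Smarca2 the difference was 0.05 ± 0.08 (SE) (95% interval -0.13 to 0.22).

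Among the SWI/SNF members, Pbrm1, Arid1a and Arid2 had the largest differences. Arid1a and Arid1b are alternative DNA-binding subunits of the canonical form, while Arid2, Pbrm1 and Brd7 mark the polybromo form (PBAF) and Brd9 a smaller non-canonical form. Pbrm1 (Gene ID 101827101), a protein with several bromodomains that bind acetylated histones, measured 27.1, 37.04 and 34.9 FPKM in vector 1, 2 and 3 and 42.8, 40.8 and 38.9 FPKM in STYK1 1, 2 and 3. Arid1a (Gene ID 101830620) measured 18.6, 24.5 and 25.4 FPKM in vector 1, 2 and 3 and 28.6, 27.5 and 28.3 FPKM in STYK1 1, 2 and 3. In both genes every STYK1 library lay above every vector library, and vector 1 was well below the other 2 vector libraries. The log2 differences were 0.31 ± 0.12 (SE) and 0.30 ± 0.12 (SE) and the unadjusted p-values 0.0359 and 0.0428 (limma-trend, adjusted p = 0.469 for both). Without vector 1 they were 0.18 and 0.16 (unadjusted p = 0.0326 and 0.0399, limma-trend).

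Arid2 and Arid1b had higher means in STYK1 libraries, with intervals that held 0. Arid1b measured 8.50, 9.15 and 11.3 FPKM in vector and 11.5, 11 and 11.7 FPKM in STYK1 libraries, and its groups overlapped. Arid2 measured 9.96 ± 2.34 against 12.1 ± 0.338 FPKM (mean ± SD, n = 3, vector against STYK1). Its groups did not overlap, but vector 2 (11.83 FPKM) lay only just below STYK1 1 (11.84 FPKM). Their differences were 0.23 ± 0.12 (SE) and 0.27 ± 0.16 (SE), or 0.15 and 0.09 without vector 1. The remaining markers of form, Brd7 and Brd9, were at 40.4 ± 0.976 against 39.4 ± 1.28 FPKM and 15.6 ± 1.40 against 15.96 ± 1.70 FPKM, with differences of -0.04 and 0.03, or -0.03 and -0.02 without vector 1. Over the ARID subunits, Arid1a held 53.9% ± 0.244 of the summed FPKM in vector and 54.5% ± 0.560 in STYK1 libraries (SD, n = 3 each), and Arid1b and Arid2 held 20.1% to 26.0% each in all 6 libraries.

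Several core and accessory SWI/SNF subunits lay close to 0. Smarcc1 and Smarcc2, the paired scaffolds of the core, measured 49.02 ± 2.73 against 53.02 ± 0.883 FPKM and 42.1 ± 0.696 against 42.5 ± 0.258 FPKM. Smarce1, an HMG-box subunit, measured 89.98 ± 5.11 against 95.3 ± 3.05 FPKM, and Actl6a, an actin-related subunit shared with INO80 and TIP60, measured 69.9 ± 4.38 against 67.4 ± 3.82 FPKM. Smarcb1, a core subunit lost in rhabdoid tumours, measured 52.7 ± 5.98 against 48.8 ± 0.684 FPKM, with vector 1 the highest of the 6 libraries. These 5 genes differed by -0.10 to 0.11 log2 units, and of them only Smarcc1 had groups that did not overlap. Without vector 1 they differed by -0.10 (Actl6a) to 0.07 (Smarcc1), with Smarcb1 at -0.02.

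The exclusive BAF60 subunits are encoded by Smarcd1, Smarcd2 and Smarcd3. Smarcd2 took the largest share of their FPKM, 54.9% ± 1.16 in vector and 56.6% ± 3.19 in STYK1 libraries (SD, n = 3 each), and Smarcd1 the smallest, 11.4% ± 1.84 and 12.3% ± 1.22. Smarcd3, the form best known from heart and skeletal muscle, measured 50.2, 39.9 and 45.1 FPKM in vector 1, 2 and 3 and 36.1, 34.9 and 42.4 FPKM in STYK1 1, 2 and 3. STYK1 3 lay within the vector range, and the log2 difference of -0.25 ± 0.12 (SE) had an unadjusted p of 0.0649 (limma-trend), the smallest among SWI/SNF members below 0. It was -0.17 without vector 1. Over the 16 SWI/SNF members the median difference was 0.04, and 2 were higher and 0 lower at an unadjusted p under 0.05 (12.5% and 0%, against 4.95% and 4.88% of all tested genes).

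ISWI remodellers space nucleosomes evenly, and in these cells their catalytic transcript was that of Smarca5, which encodes SNF2H. Smarca5 (Gene ID 101838151) measured 113, 124 and 125 FPKM in vector 1, 2 and 3 and 154, 141 and 139 FPKM in STYK1 1, 2 and 3. Its lowest STYK1 library was above its highest vector library. It had the smallest p of all members, with a difference of 0.27 ± 0.08 (SE) log2 units (95% interval 0.07 to 0.46) and an unadjusted p of 0.0122 (limma-trend, adjusted p = 0.469). Without vector 1 it was 0.22 (unadjusted p = 0.00807, limma-trend). The alternative ISWI ATPase Smarca1, which encodes SNF2L and is best known from neurons, was listed at 0.04 FPKM in vector 1 and at 0 in the other 5 libraries, the lowest level of all members.

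Bptf, the large reader subunit of the ISWI complex NURF, had the next smallest p of the group. Bptf (Gene ID 101839908) measured 9.37, 11.4 and 11.5 FPKM in vector 1, 2 and 3 and 14.1, 13.6 and 12.6 FPKM in STYK1 1, 2 and 3, with every STYK1 library above every vector library. The difference was 0.30 ± 0.12 (SE) (unadjusted p = 0.0298, limma-trend, adjusted p = 0.469), and 0.21 without vector 1. Rbbp4 and Rbbp7 encode closely related histone chaperones that serve NURF, NuRD and other complexes, and they were the most abundant members. Rbbp4 measured 113, 164 and 162 FPKM in vector and 172, 161 and 176 FPKM in STYK1 libraries, in the order of replicate number. Rbbp7 measured 126, 165 and 161 FPKM in vector and 171, 150.5 and 184 FPKM in STYK1 libraries. In both, vector 1 was far below the other 5 libraries, which overlapped between groups. Their differences were 0.23 and 0.16 with all libraries and 0.06 and 0.04 without vector 1.

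The CHD family joins chromodomains, which read histone tails, to a SNF2 motor. Of 9 Chd genes, 8 were tested and all 8 had a difference above 0, between 0.09 for Chd1 and 0.31 for Chd2, or between 0.12 and 0.28 without vector 1. Of all tested genes, 52.7% lay above 0, or 55.6% without vector 1. Among the 8, only Chd2 and Chd4 had an unadjusted p under 0.05 with all libraries (limma-trend). Chd4 (Gene ID 106023215), the main motor of NuRD, measured 71.95, 70.7 and 69.95 FPKM in vector 1, 2 and 3 and 80.5, 84.2 and 80.9 FPKM in STYK1 1, 2 and 3. Its vector libraries lay close together, all below the STYK1 libraries. Chd2 (Gene ID 106022371), linked in humans to epilepsy, measured 16.8, 17.98 and 17.2 FPKM in vector 1, 2 and 3 and 20.9, 24.5 and 19.8 FPKM in STYK1 1, 2 and 3. Its groups did not overlap either, and STYK1 2 was the highest. The differences were 0.21 ± 0.07 (SE) for Chd4 and 0.31 ± 0.11 (SE) for Chd2 and the unadjusted p-values 0.0225 and 0.0198 (limma-trend, adjusted p = 0.469 for both). Without vector 1 they were 0.22 and 0.28. Chd4 then had the smallest unadjusted p of all members, 0.00456 (limma-trend, adjusted p = 0.439).

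Chd3, the alternative NuRD motor, measured 23.4, 24.6 and 24.4 FPKM in vector 1, 2 and 3 and 27.5, 25.7 and 28.4 FPKM in STYK1 1, 2 and 3. Its groups did not overlap, with a difference of 0.17 ± 0.09 (SE) and an unadjusted p of 0.0899 (limma-trend). Chd5, the form best known from neurons, stayed between 0.17 and 0.29 FPKM in all 6 libraries. Chd4 held 74.4% ± 0.780 of the summed FPKM of Chd3, Chd4 and Chd5 in vector and 74.9% ± 1.38 in STYK1 libraries (SD, n = 3 each). Chd1, which follows elongating polymerase, measured 47.8, 41.4 and 45.3 FPKM in vector and 51.8, 45.4 and 45.95 FPKM in STYK1 libraries, with overlapping groups and a difference of 0.09, or 0.14 without vector 1.

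The Chd6 to Chd9 group was of lower level. Chd6 led it at 15.7, 17.5 and 16.2 FPKM in vector and 17.9, 20.1 and 17.2 FPKM in STYK1 libraries. Chd7, the gene of CHARGE syndrome in humans, measured 6.33, 5.37 and 5.24 FPKM in vector and 6.70, 6.89 and 6.12 FPKM in STYK1 libraries. In Chd7, vector 1 was the sole vector library inside the STYK1 range, so the difference was 0.19 with it and 0.26 without it (unadjusted p = 0.161 and 0.0426, limma-trend). Chd8, linked in humans to autism, measured 7.79, 7.19 and 7.88 FPKM in vector and 8.58, 9.74 and 8.03 FPKM in STYK1 libraries. Chd9 measured 3.77, 4.91 and 4.60 FPKM in vector and 5.30, 6.56 and 4.97 FPKM in STYK1 libraries. Groups of Chd8 and Chd9 did not overlap, those of Chd6 did, and STYK1 2 was the highest library for Chd6, Chd7, Chd8 and Chd9.

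The MBD and MTA subunits of NuRD lay at or below 0. Mbd3, the methyl-CpG-binding-domain subunit that defines a major form of NuRD, measured 70.1, 49.9 and 53.99 FPKM in vector 1, 2 and 3 and 44.6, 46.1 and 50.6 FPKM in STYK1 1, 2 and 3. Vector 1 was far above the rest and STYK1 3 lay inside the vector range. The difference was -0.28 ± 0.13 (SE) (unadjusted p = 0.0638, limma-trend), and -0.14 without vector 1. Its alternative Mbd2, which binds methylated DNA, measured 81.4 ± 2.31 against 77.1 ± 5.20 FPKM. The MTA scaffolds were at similar levels for Mta1 (69.6 ± 5.49 against 66.2 ± 2.84 FPKM) and Mta2 (68.2 ± 6.94 against 67.5 ± 1.94 FPKM), and lower for Mta3 (25.4 ± 5.48 against 25.1 ± 3.24 FPKM). Their differences were -0.07, -0.01 and -0.0035. Without vector 1, that of Mta1 was -0.01, and those of Mta2 and Mta3 had the other sign, at 0.07 and 0.15.

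The INO80, SRCAP and TIP60 complexes move or exchange the histone variant H2A.Z and share the hexamer of Ruvbl1 and Ruvbl2. Ruvbl2 (Gene ID 101844238), an AAA+ ATPase, measured 65.6, 48.5 and 51.2 FPKM in vector 1, 2 and 3 and 44.1, 46.2 and 43.1 FPKM in STYK1 1, 2 and 3. It was the member below 0 with the smallest p: every STYK1 library lay below every vector library. The difference was -0.29 ± 0.12 (SE) (unadjusted p = 0.0399, limma-trend, adjusted p = 0.469), and -0.16 without vector 1 (unadjusted p = 0.035, limma-trend). Ruvbl1 measured 61.7, 51.6 and 53.95 FPKM in vector and 51.6, 50.6 and 52.2 FPKM in STYK1 libraries, with overlapping groups and a difference of -0.11, or -0.04 without vector 1.

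The motors of this class had overlapping groups. Ino80, the motor of its complex, measured 11.5, 11.3 and 10.4 FPKM in vector 1, 2 and 3 and 11.2, 12.3 and 11.01 FPKM in STYK1 1, 2 and 3. Ep400, the motor of TIP60, measured 10.8, 13.7 and 13.3 FPKM in vector 1, 2 and 3 and 14.01, 15.5 and 13.6 FPKM in STYK1 1, 2 and 3. Their differences were 0.05 ± 0.10 (SE) and 0.18 ± 0.12 (SE), or 0.07 and 0.08 without vector 1. Brd8, a bromodomain subunit of TIP60, measured 17.3 ± 2.67 against 18.9 ± 0.964 FPKM. Its difference was 0.13, or 0.02 without vector 1. Among the INO80 subunits, Ino80d measured 2.67, 4.37 and 4.24 FPKM in vector and 5.02, 4.87 and 5.05 FPKM in STYK1 libraries. Its groups did not overlap, and its difference was 0.35 ± 0.17 (SE), or 0.17 without vector 1. Ino80b measured 32.6, 15.9 and 14.1 FPKM in vector and 12.4, 17.1 and 14.8 FPKM in STYK1 libraries. Vector 1 was far above the other 5 libraries, and the difference was -0.38 ± 0.28 (SE) with it and -0.03 without it. Ino80c and Ino80e measured 16.6 ± 1.78 against 16.7 ± 0.645 FPKM and 22.9 ± 2.89 against 21.2 ± 0.52 FPKM. Their differences were 0.01 and -0.10, or -0.07 and -0.01 without vector 1. Over the 9 members the median difference was 0.01, and -0.01 without vector 1.

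Atrx, an SNF2 motor that works with the chaperone DAXX to place histone H3.3 at telomeres and repeats, had the largest difference of all members with all 6 libraries. Atrx (Gene ID 101830205) measured 24.1, 35.7 and 35.01 FPKM in vector 1, 2 and 3 and 47.2, 41.2 and 40.7 FPKM in STYK1 1, 2 and 3. Its groups did not overlap, and vector 1 was the lowest by a wide margin. The difference was 0.45 ± 0.15 (SE) (95% interval 0.10 to 0.80), with an unadjusted p of 0.018 (limma-trend, adjusted p = 0.469). Without vector 1 it was 0.27 (unadjusted p = 0.00886, limma-trend), below those of Arid4b (0.31) and Chd2 (0.28). Smarcad1, a remodeller active at replicated chromatin and DNA breaks, measured 13.2, 18.5 and 18.9 FPKM in vector and 21.2, 21.6 and 20.2 FPKM in STYK1 libraries. Its groups did not overlap, and its difference of 0.31 ± 0.14 (SE) was 0.16 without vector 1. Smarcal1, an annealing helicase of stalled forks, measured 9.99, 10.5 and 10.5 FPKM in vector and 10.1, 9.75 and 11.3 FPKM in STYK1 libraries, with overlapping groups and a difference of 0.01, or -0.02 without vector 1.

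**Figure D2:**
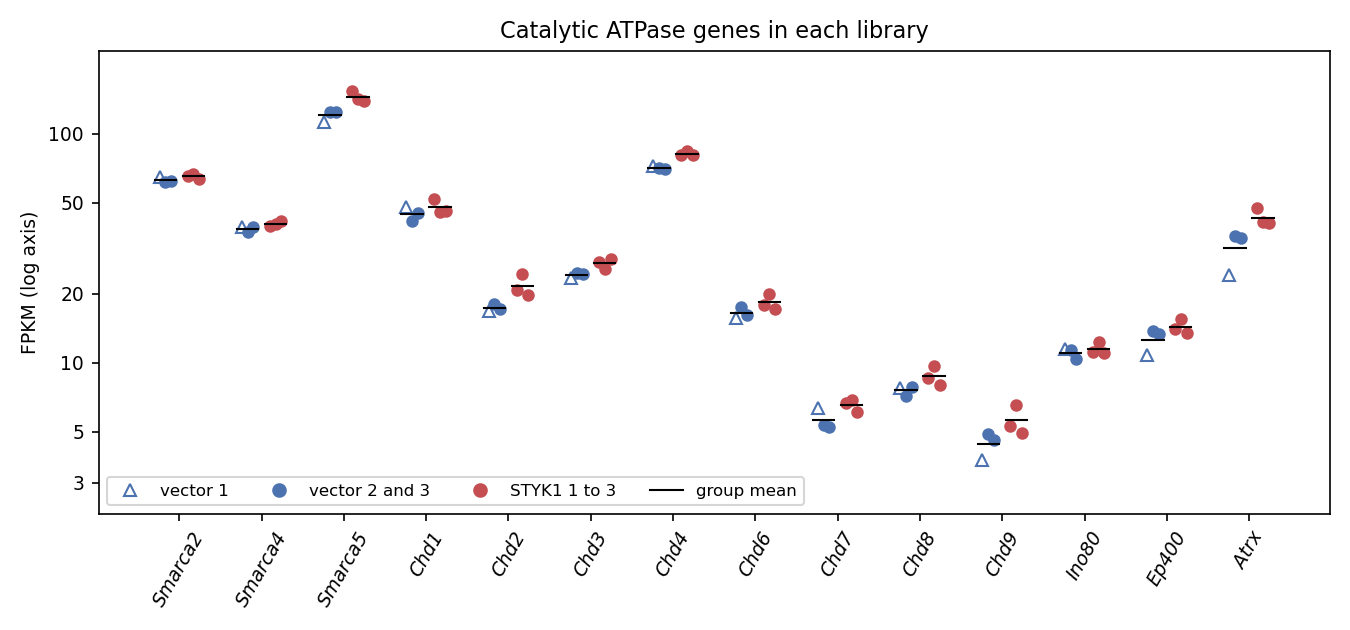
FPKM (log axis) of the 14 tested catalytic ATPase genes in each library. Open triangles are vector 1, blue dots vector 2 and 3, red dots STYK1 1 to 3, and black bars group means. Group means are higher in STYK1 libraries for all 14, and the points of the groups do not overlap for 8 of them, among them Smarca5, Chd2, Chd4 and Atrx.

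The 14 tested catalytic ATPases (Smarca2, Smarca4, Smarca5, Chd1 to Chd4, Chd6 to Chd9, Ino80, Ep400 and Atrx) had a median difference of 0.18, against 0.03 for the other 39 tested members and 0.01 for all tested genes. Of all tested genes, 52.7% lay above 0. The groups did not overlap, with STYK1 higher, for 8 of the 14 (57.1%) and for 9 of the other 39 (23.1%), against 13.6% of all tested genes. Without vector 1 all 14 again lay above 0, with a median of 0.17, against 0.03 for the other 39. Vector 1 was the lowest library for 7 of the 14, vector 2 for 4 and vector 3 for 3. STYK1 2 was the highest for 9, STYK1 1 for 3 and STYK1 3 for 2. All 14 stayed above 0 after median centring of the libraries (median 0.15, lowest 0.02) and after scaling to equal FPKM sums (median 0.28, where 70.5% of all genes lay above 0). After quantile normalization 13 did, with Ino80 at -0.009. The mean level of the 14, relative to the vector mean and in log2 units, was -0.04, 0.02 and 0.02 across vector 1 to 3 and 0.19, 0.24 and 0.13 across STYK1 1 to 3. Smarcad1 and Smarcal1, also SNF2 ATPases, are not on this list. Their differences were 0.31 and 0.01, or 0.16 and -0.02 without vector 1. Remodeller genes of a separate list, which also holds the chaperone gene Daxx, are not on the ATPase list either. Of those 9 genes, 7 lay above 0. Chd1l was at -0.04, or -0.18 without vector 1, and Daxx at -0.17, or -0.04 without vector 1. No test of the list was made.

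**Figure D3:**
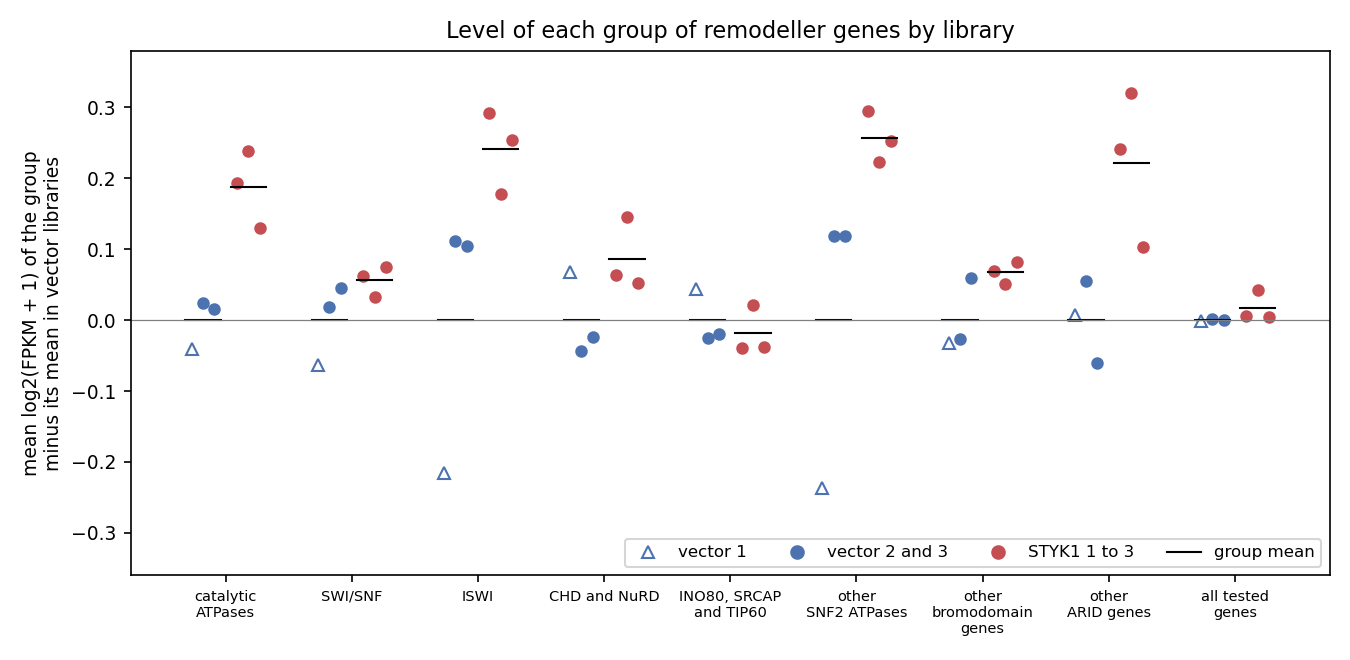
Mean log2(FPKM + 1) of the tested members of each group, minus the mean of the vector libraries, for the 14 catalytic ATPases, the 7 gene groups and all tested genes. Open triangles are vector 1, blue dots vector 2 and 3, red dots STYK1 1 to 3 and black bars group means. The STYK1 points lie above all vector points for the catalytic ATPases, ISWI, the other SNF2 ATPases and the other ARID genes. They also do so for all tested genes, whose highest STYK1 point is 0.042. They mix with the vector points for SWI/SNF, for CHD and NuRD, for INO80, SRCAP and TIP60 and for the other bromodomain genes. Vector 1 lies far below the other libraries for ISWI and the other SNF2 ATPases. ISWI holds 4 tested genes, the other SNF2 ATPases 3 and the other ARID genes 4. The sets share genes: Smarca5 of ISWI and Atrx of the other SNF2 ATPases are also among the 14 catalytic ATPases.

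Bromodomain proteins outside these complexes read acetylated histones, and Brd2 and Brd3 belong to the BET family, which recruits elongation factors to promoters and enhancers. Brd2 measured 140.0, 138 and 138 FPKM in vector and 135, 128 and 138 FPKM in STYK1 libraries. All of its STYK1 values were below its vector values, by a small margin, with a difference of -0.05 ± 0.07 (SE) (unadjusted p = 0.489, limma-trend). Brd3 measured 18.8, 19.2 and 21.8 FPKM in vector and 20.9, 23.1 and 20.9 FPKM in STYK1 libraries. Brd1, a scaffold of histone acetyltransferases, measured 18.2, 20.9 and 23.6 FPKM in vector and 22.8, 21.6 and 23.6 FPKM in STYK1 libraries. Groups of Brd1 and Brd3 overlapped, with differences of 0.12 and 0.12, or 0.03 and 0.08 without vector 1.

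The ARID genes outside SWI/SNF encode DNA-binding regulators, and 4 of 7 were tested. Arid5b (Gene ID 101833060), a partner of the demethylase PHF2, measured 15.4, 18.03 and 19 FPKM in vector 1, 2 and 3 and 20.8, 23.1 and 20.6 FPKM in STYK1 1, 2 and 3. Arid4b (Gene ID 101831130), a subunit of the SIN3 deacetylase complex, measured 16.3, 15.4 and 14.3 FPKM in vector 1, 2 and 3 and 20.2, 19.7 and 16.3 FPKM in STYK1 1, 2 and 3. In both genes every STYK1 library lay above every vector library, for Arid4b by a narrow margin between STYK1 3 and vector 1. The differences were 0.29 ± 0.11 (SE) and 0.27 ± 0.11 (SE) and the unadjusted p-values 0.0296 and 0.0436 (limma-trend, adjusted p = 0.469 for both), and 0.20 and 0.31 without vector 1. Arid4a, the paralog of Arid4b, measured 10.4, 9.81 and 8.67 FPKM in vector and 10.8, 11.6 and 10.2 FPKM in STYK1 libraries, and Arid3a, a regulator first known from B cells, measured 8.73, 9.68 and 7.81 FPKM in vector and 10.1, 11 and 8.85 FPKM in STYK1 libraries. Both had overlapping groups, with differences of 0.16 and 0.17. Arid3b, Arid3c and Arid5a were near the bottom of the scale. Arid5a ranged from 0.57 to 1.39 FPKM, Arid3b from 0.58 to 0.98 FPKM, and Arid3c from 0.09 to 0.19 FPKM in 5 libraries, with STYK1 1 listed at 0.

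Ratios between alternative subunits in the same library do not depend on how libraries are scaled, and 12 of 14 planned pairs could be compared. No pair could pass an exact two-sided permutation test at 0.05, since its smallest possible p is 0.1 with 3 libraries against 3. The adjusted p (exact permutation) ran from 0.48 to 0.9 over the 12, and the ratios are given as values, not calls. The Ruvbl2/Ruvbl1 ratio was 1.06, 0.939 and 0.95 across vector 1 to 3 and 0.855, 0.911 and 0.826 across STYK1 1 to 3. All STYK1 ratios were below all vector ratios, with a difference of -0.19 ± 0.07 (SE) log2 units (exact permutation p = 0.1, adjusted p = 0.48). It was -0.129 without vector 1. The Smarcc2/Smarcc1 ratio was 0.935, 0.832 and 0.819 across vector 1 to 3 and 0.785, 0.805 and 0.815 across STYK1 1 to 3, again with all STYK1 ratios below (difference -0.10 ± 0.06 (SE), exact permutation p = 0.1, adjusted p = 0.48). Without vector 1 its difference was -0.042. The other 10 pairs overlapped between groups. Of these, Chd2/Chd1 had the largest difference at 0.23 ± 0.15 (SE), then Mbd3/Mbd2 at -0.20 ± 0.14 (SE) and Arid4b/Arid4a at 0.11 ± 0.07 (SE). A single library moved each of these by over 1.5 times, to 0.105 for Chd2/Chd1 without STYK1 2, to -0.082 for Mbd3/Mbd2 without vector 1 and to 0.05 for Arid4b/Arid4a without STYK1 1. The smallest differences were those of Arid2/Arid1a at -0.01 ± 0.10 (SE), Smarca2/Smarca4 at -0.02 ± 0.05 (SE) and Chd3/Chd4 at -0.04 ± 0.07 (SE). With 1 library left out these ranged from -0.073 to 0.074, from -0.047 to 0.017 and from -0.075 to 0.027. The sources used here do not say how reads shared between close paralogs were counted, which makes the split within such pairs uncertain.

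**Figure D4:**
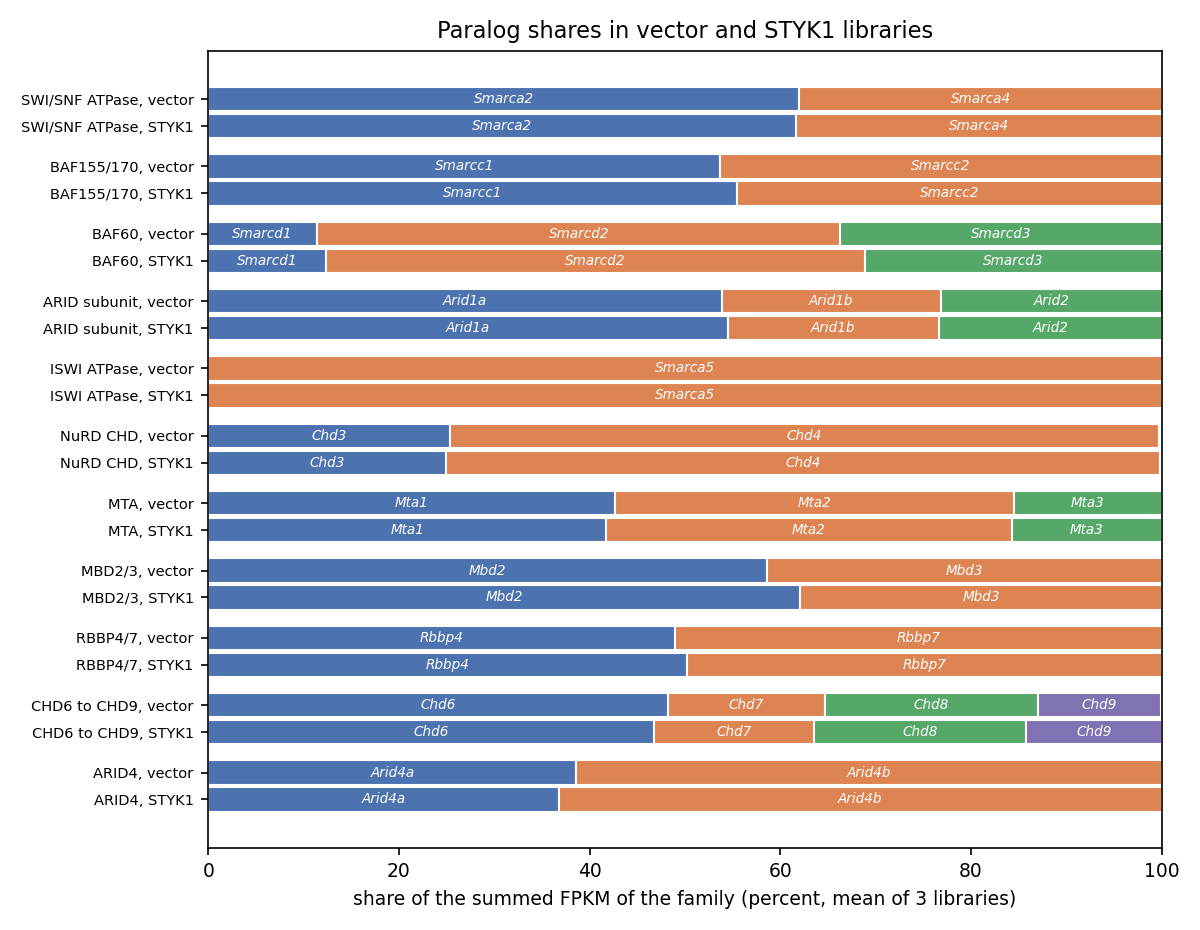
Share of the summed FPKM of each paralog family held by each gene, as the mean of 3 libraries per group. Smarca5 makes up the ISWI pair, Chd4 74.4% and 74.9% of Chd3 to Chd5 and Smarca2 62.0% and 61.6% of the SWI/SNF pair, in vector and STYK1 libraries.

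Partner subunits that the symbol rule did not take were read from lists by complex, with 55 measured and 50 tested. None passed the test over all genes (limma-trend, 0 of 50), and at an unadjusted p under 0.05 there were 5 higher and 0 lower in STYK1 libraries (10% and 0%, against 4.95% and 4.88% of all tested genes), or 3 and 0 without vector 1 (against 4.91% and 4.57%). Among 8 ISWI partners, Rsf1, which pairs with SNF2H in the RSF complex, measured 9.39, 10.9 and 10.7 FPKM in vector 1, 2 and 3 and 15.1, 15.5 and 12.04 FPKM in STYK1 1, 2 and 3. Its groups did not overlap, with a difference of 0.42 ± 0.13 (SE) (unadjusted p = 0.01, limma-trend) and 0.36 without vector 1. Baz2b and Baz2a, SNF2H partners with bromodomains, measured 4.30 ± 0.356 against 5.47 ± 0.491 FPKM and 27.6 ± 6.80 against 34.5 ± 2.30 FPKM, with no overlap in either. Their differences were 0.29 and 0.34, or 0.24 and 0.13 without vector 1.

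Among 5 NuRD partners, Gatad2b, the p66-beta subunit that bridges the deacetylase and CHD modules, measured 13.6, 17.6 and 16.7 FPKM in vector 1, 2 and 3 and 23.4, 20.3 and 19.9 FPKM in STYK1 1, 2 and 3. Its STYK1 libraries all lay above its vector libraries, with a difference of 0.39 ± 0.12 (SE) (unadjusted p = 0.0123, limma-trend) and 0.29 without vector 1. The deacetylase Hdac2 measured 72.5 ± 1.84 against 77.4 ± 0.952 FPKM and Cdk2ap1, a small NuRD subunit, 76.8 ± 9.25 against 69.7 ± 4.45 FPKM. For Cdk2ap1 the difference was -0.13, or -0.04 without vector 1. Of 10 tested SWI/SNF partners, 0 had an unadjusted p under 0.05. Bicral, of the non-canonical form, measured 9.84 ± 1.16 against 11.6 ± 1.21 FPKM, Bcl7c 50.3 ± 11.1 against 41.8 ± 1.80 FPKM and Ss18 48.8 ± 4.15 against 53.7 ± 3.002 FPKM. Their differences were 0.22, -0.24 and 0.14, or 0.13, -0.07 and 0.07 without vector 1. Actl6b, best known from neurons, and Bcl11a, Bcl11b and Dpf3 stayed at 0 to 0.17 FPKM. Of 18 tested INO80, SRCAP and TIP60 partners, again 0 had an unadjusted p under 0.05. Actr6, an actin-related subunit of SRCAP, measured 4.50 ± 0.518 against 6.41 ± 1.84 FPKM, the TIP60 subunit Mbtd1 16.1 ± 2.93 against 19.2 ± 0.443 FPKM and the INO80 subunit Tfpt 26.9 ± 11.1 against 19.1 ± 3.09 FPKM. For Mbtd1 the difference was 0.26, or 0.11 without vector 1. Tfpt, like Ino80b, was highest in vector 1, and its difference was -0.41 with that library and -0.10 without it.

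Over the members as a whole, vector 1 was the lowest of the 6 libraries for 23 of 53 members (43.4%, against 36.5% of all tested genes) and the highest for 15 (28.3%, against 37.2%). Leaving it out made the log2 difference smaller by over 1.5 times for 23 members, larger by over 1.5 times for 5 and of the other sign for 5, and left 20 within 1.5 times. Of the 10 members with an unadjusted p under 0.05, 4 had a difference smaller by over 1.5 times without it. These were Atrx, Pbrm1, Arid1a and Ruvbl2. The quality of its RNA was not tested.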

How the data were processed

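RNA was extracted with Trizol and 1 ug of total RNA was made into libraries with an Illumina TruSeq kit, per the labels' protocols. Each deposited file gives FPKM as calculated by the authors, with 1 value per gene, per the file headers. The submitters' processing notes name Bowtie 0.12.2 and the mouse builds mm8 and mm9, with no role given, while the gene IDs are those of the hamster, so the genome behind the values is not settled. The annotation, the FPKM tool, use of strand and handling of shared reads were not given in the sources used here. No coordinates are printed.

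Libraries were assigned to groups by their treatment label. Of 16078 NCBI Gene IDs, 15049 matched a symbol of the RefSeq table for hamster assembly BCM_Maur_2.0, used for names only. The 11464 genes whose mean reached 1 FPKM in either group were tested with limma-trend (limma 3.58.1, R 4.3.3, robust empirical Bayes, two-sided) on log2(FPKM + 1), with Benjamini-Hochberg adjustment over all tested genes at 0.05. This scale understates the change of low genes, and folds are quotients of mean FPKM. Absolute depth is unknown. At low FPKM, the most frequent ratio of a library's values to those of STYK1 1 was 0.972 to 1.02. At equal counts this ratio is the inverse of relative depth. Pair ratios were tested with exact permutation (SciPy 1.17.1). The fit was tested on simulated data.

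Members and lists were chosen with earlier results of these data known. Values in every library are given at least for the catalytic ATPases, up to 4 members with the smallest p in each group and members with a library at 0. Of each partner list, up to 3 genes with the smallest p are named. Outside that rule, Actl6b, Bcl11a, Bcl11b, Dpf3, Ercc6, Chd1l and Daxx are named too. A planned comparison by protein length was not made here, and the values of 1 tested member are not reported here. Deviations of same-numbered libraries correlated at -0.273, -0.156 and 0.113, and those of libraries of different numbers at -0.282 to 0.28. These values cannot settle whether the replicate numbers pair the libraries, and the fit treated them as unpaired.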

Additional observations from a re-analysis of the deposited data

How the results depend on the processing

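No member passed the adjusted threshold under any of the 14 alternatives run. With library quality weights (0.129 for vector 1), limma called 24 genes of all tested and 0 members, the smallest adjusted p of a member being 0.0685. Leaving out 1 library called 0 to 2 genes. The median log2 difference of the members was 0.11 with all libraries, 0.22 at equal FPKM sums (median of all genes 0.12), 0.084 after median centring and 0.078 with quality weights. Every vector library had a larger FPKM sum (554681 to 619840, vector 1 the largest) than every STYK1 library (528160 to 542638). Scaling to equal sums thus raises STYK1 values against vector values. Leaving out 1 library gave 0.072 (without vector 1) to 0.105 (without vector 2). Members at an unadjusted p under 0.05 were 10, 9 of them higher and 1 lower. With quality weights they were 16, 15 of them higher (28.3%, against 10.5% of all genes), and at equal sums 13 were higher (24.5%, against 11.1%) and 0 lower. Leaving out 1 library gave 1 (without STYK1 1) to 13 (without vector 2), with 1 to 10 higher and 0 to 3 lower (all genes: 1.44% to 7.86% higher, 1.65% to 7.02% lower). With the replicate block, 3 members were higher (5.66%, against 3.93%) and 0 lower (3 in all). Whether the replicate numbers pair the libraries is not known. In the count over all genes, 568 were higher and 560 lower at that p, against 1269 and 216 at equal sums and 402 and 762 after median centring. The sign of the log2 difference changed for 12 of 53 members at equal sums, 6 after quantile normalization, 6 with quality weights, 4 after median centring, 1 to 5 when 1 library was left out and 0 under the other 4. The cause of these changes was not tested. Without counts, no counting interval can be given for low members such as Chd5 or Arid3c.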

Other observations

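Other remodeller genes were read from a separate list of 9 measured and tested genes. It also holds Daxx, which encodes a histone chaperone and not an SNF2 protein. None passed the test (limma-trend, 0 of 9), while 3 were higher in STYK1 libraries at an unadjusted p under 0.05 (33.3%, against 4.95% of all tested genes) and 0 lower. Hltf, a translocase of stalled replication forks, measured 21.7, 29.2 and 33.2 FPKM in vector 1, 2 and 3 and 36.3, 36.5 and 35.7 FPKM in STYK1 1, 2 and 3, and its groups did not overlap. Rad54l2, an SNF2 helicase, measured 1.88, 4.23 and 3.70 FPKM in vector 1, 2 and 3 and 4.52, 5.72 and 5.19 FPKM in STYK1 1, 2 and 3. Hells, a remodeller needed for DNA methylation, measured 2.39, 4.47 and 4.07 FPKM in vector 1, 2 and 3 and 6.06, 4.56 and 5.76 FPKM in STYK1 1, 2 and 3. The groups of Rad54l2 and Hells did not overlap either. The log2 differences were 0.38 ± 0.14 (SE), 0.57 ± 0.23 (SE) and 0.50 ± 0.20 (SE), and 0.21, 0.30 and 0.29 without vector 1, where 1 of the 3, Hltf, kept an unadjusted p under 0.05. The list's median was 0.26 with all libraries and 0.12 without vector 1. Of the 9 genes, 7 lay above 0 and 2 below, with Chd1l at -0.04, or -0.18 without vector 1. Ercc6, the repair factor of Cockayne syndrome, measured 9.44 ± 0.95 against 11.1 ± 0.508 FPKM (mean ± SD, n = 3, vector against STYK1). Its difference was 0.215, or 0.137 without vector 1. Daxx, the partner of ATRX, measured 43.3 ± 6.92 against 38.2 ± 2.37 FPKM, with a difference of -0.17 ± 0.12 (SE), or -0.04 without vector 1. It did not pass the test.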
